A study of Mus musculus with 12 samples.

Results

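The enzymes of glycolysis and of the pentose phosphate pathway were followed as a set of 36 genes among the 45703 genes of the deposited tables, chosen as the rows whose symbol equals a listed enzyme or carrier. The set holds 18 genes for the steps between hexokinase and pyruvate kinase, 4 for lactate dehydrogenase and the lactate carriers, and 5 for the PFKFB enzymes and bisphosphoglycerate mutase. The other 9 belong to the pentose phosphate pathway and to the making of phosphoribosyl pyrophosphate (PRPP). All 36 symbols were found, each on 1 row.

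RNA had been sequenced from mouse CD4+ T cells on a C57BL/6 background, in 3 libraries for each of 4 groups: Th17 GLUT3-deficient, Th17 wild type, Th1 GLUT3-deficient and Th1 wild type. The cells of every group had started as naive T cells and had spent 3 days in culture, stimulated through CD3 and CD28 with the cytokines of the Th17 or the Th1 lineage. GLUT3-deficient cells are labelled Slc2a3-fl/fl Cd4-cre, a floxed gene of the glucose transporter GLUT3 deleted by a Cre recombinase under control of Cd4 sequences, which is active in developing T cells. The labels do not say whether the wild-type cells carried the floxed allele or the Cre, nor whether replicates were separate animals or cultures, so the p-values speak of the spread among these libraries alone.

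Glycolysis splits glucose into pyruvate with a net gain of ATP, and activated T cells send much of that pyruvate on to lactate. Hexokinase and phosphofructokinase are its main controlled steps, and phosphofructokinase is stimulated by fructose 2,6-bisphosphate, the product of the PFKFB enzymes. The pentose phosphate pathway branches off at glucose 6-phosphate and yields NADPH and ribose 5-phosphate, which PRPP synthetase turns into the sugar unit of nucleotides. Many glycolytic genes are known targets of the transcription factors HIF-1 and MYC.

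The libraries held 16596283 to 28496606 reads, recovered from the deposited TPM values (a level per exon length, on a scale with the same total in every library), and 3 reads on a kilobase of exon stood at 0.19 to 0.437 TPM. Th17 GLUT3-deficient replicate 2 stood apart: the median absolute log2 difference between it and its group was 0.62, while the remaining 11 libraries had 0.136 to 0.424. Slc2a3, the targeted gene, was below all wild-type libraries in all deficient ones, at 5.14, 18.8 and 3.31 TPM in Th17 GLUT3-deficient and 379, 109 and 44.6 TPM in Th17 wild-type replicates 1, 2 and 3. In Th1 it stood at 6.79, 4.49 and 7.97 TPM in GLUT3-deficient and 398, 95.5 and 64.7 TPM in wild-type replicates 1, 2 and 3. The difference passed in both lineages (log2 fold change -3.95 ± 0.85 SE, limma adjusted p = 0.0369 in Th17, and -4.23 ± 0.57 SE, adjusted p = 0.000901 in Th1). Reads on parts of the gene that the deletion leaves in place still count. Il17f, a cytokine gene that marks Th17 cells, stood at 309.6 to 545 TPM in Th17 GLUT3-deficient and 568.5 to 1076 TPM in Th17 wild-type libraries. That genotype difference was not called (limma adjusted p = 0.0885). In Th1 libraries Il17f stood at 0.307 to 4.52 TPM. Of 5 listed Th17 markers, 4 were called higher in Th17 than in Th1 wild type, against 1.85% of all genes. Among GLUT3-deficient cells 5 of 5 were, against 3.35% of all genes. Cd3e was read in all 12 libraries.

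Levels are compared between genes per exon length. Eno1, an enolase, led in Th17 wild-type cells at 7104 ± 930 TPM (mean ± SD, n = 3), followed by the triose phosphate isomerase Tpi1 at 6230 ± 1110 TPM and Gapdh, which oxidizes glyceraldehyde 3-phosphate, at 5860 ± 2069 TPM. In Th17 GLUT3-deficient cells Tpi1 led at 5748 ± 1316 TPM, with Gapdh at 4745 ± 769 TPM and Eno1 at 4550 ± 259 TPM. The order was the same in Th1, with Tpi1 first at 5414 ± 573 TPM in GLUT3-deficient cells and Eno1 first at 6038 ± 885 TPM in wild-type cells. Read within each library, Eno1 was above Tpi1 in every wild-type library and Tpi1 above Gapdh in every GLUT3-deficient library of both lineages. The other neighbours in this order, Tpi1 with Gapdh in wild type and Gapdh with Eno1 in deficient cells, changed places between libraries. The ranges of neighbours overlapped in each group, except for Tpi1 (4974 to 6062 TPM) and Gapdh (4051 to 4845 TPM) in Th1 GLUT3-deficient cells. At the other end, Hk3, Eno2, Pfkfb2, Pfkfb4 and Rpia averaged 0 to 2.91 TPM in every group.

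Summed over the 18 genes from hexokinase to pyruvate kinase, Th17 GLUT3-deficient replicates 1, 2 and 3 held 27957, 24227 and 26196 TPM, against 41508, 32524 and 27457 TPM in Th17 wild type. Th1 GLUT3-deficient replicates 1, 2 and 3 held 23205, 22309 and 27190.1 TPM, against 35946, 28418 and 22835 TPM in Th1 wild type. The genotypes overlapped in both lineages, with wild-type replicate 1 the highest library in each. The sum of the 4 lactate genes did not overlap: they summed to 3123 to 3658 TPM in Th17 GLUT3-deficient and 4309 to 4804 TPM in Th17 wild-type libraries, and to 3117 to 3824 TPM in Th1 GLUT3-deficient and 3931 to 4563 TPM in Th1 wild-type libraries. The 9 pentose phosphate and PRPP genes overlapped between the genotypes, at 1284 to 1356 TPM in Th17 GLUT3-deficient, 938 to 1476 TPM in Th17 wild-type, 891 to 1099 TPM in Th1 GLUT3-deficient and 935 to 1204 TPM in Th1 wild-type libraries. The separation of the lactate sums is that of Ldha, which made up most of them: Slc16a1 and Slc16a3 overlapped between the genotypes in both lineages, and Ldhb overlapped in Th1. These sums carried no test.

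**Figure D1:**
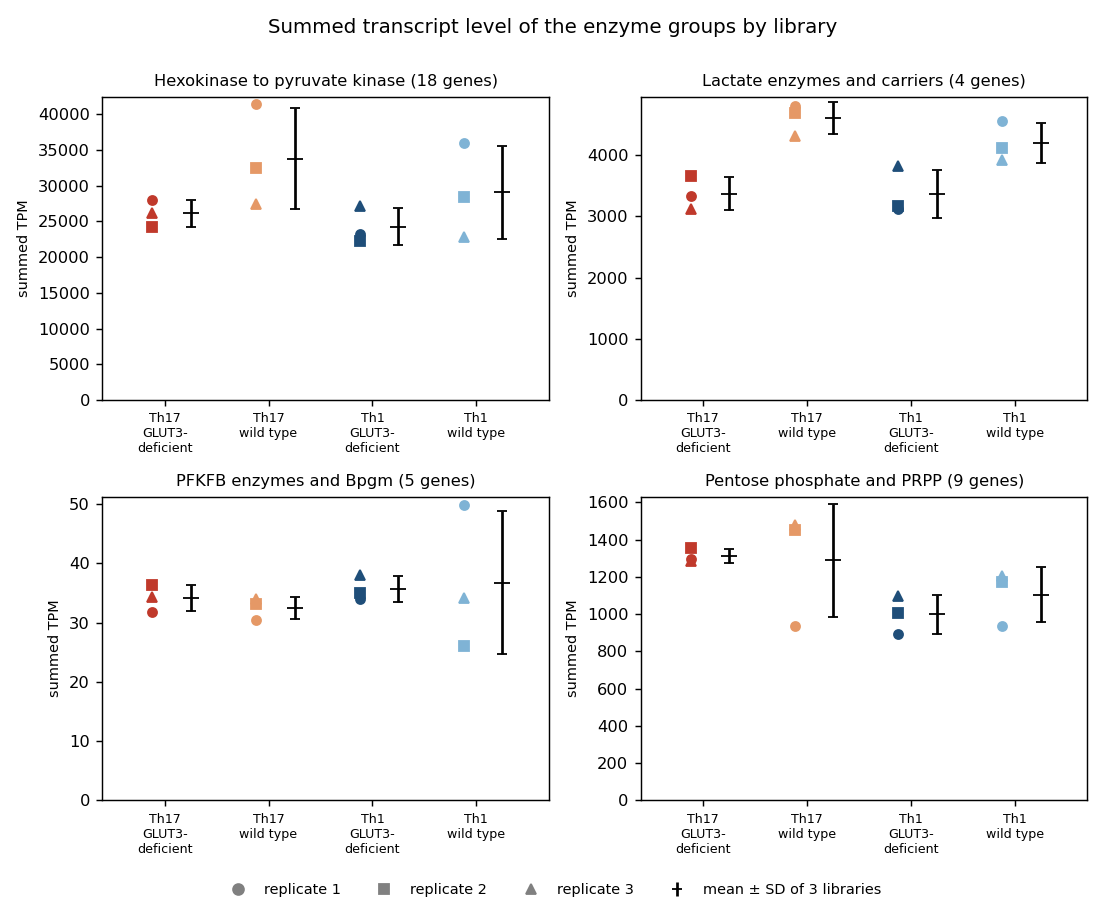
Summed TPM of the 4 enzyme groups (vertical axes, from 0) in each library, by group (horizontal axes), with the mean and SD of 3 libraries beside the points. The summed lactate genes, mostly Ldha, did not overlap between the genotypes of a lineage, while the sum of the 18 glycolytic genes did, with wild-type replicate 1 highest.

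Between the genotypes, the test on log2(TPM + 1) with limma called 0 of the 33 members tested in Th17 cells, where it called 7.3% of 13823 genes, 4.6% higher and 2.7% lower. The fit by voom on the recovered reads also called 0, and 9 members had an unadjusted p under 0.05, as had 25% of all genes. The groups did not overlap for 2 tested members higher in Th17 GLUT3-deficient cells (Pfkfb1 and Prps1), against 18.5% of all genes tested. They did not overlap for 9 lower tested members (Gpi1, Aldoc, Pgk1, Eno1, Eno1b, Ldha, Ldhb, Pgls and Rpe), against 18.2% of all genes tested (36.7% in either direction). Of the members too low to be tested, Hk3 was higher and Eno2 lower without overlap. The median log2 fold change of the 33 members was -0.20, against 0.04 over all genes tested. Without Th17 GLUT3-deficient replicate 2 the test called 4 members, Pfkfb1 higher and Eno1, Eno1b and Slc16a1 lower, where it called 16.2% of all genes.

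In Th1 cells 4 of the 32 members tested passed, 1 higher and 3 lower in GLUT3-deficient cells, where 17.6% of 13487 genes were called higher and 13.7% lower, 31.3% in all. The member that rose was Pfkfb1 and those that fell were Gpi1, Aldoc and Pgls. With an unadjusted p under 0.05 there were 9 members, and 42.9% of all genes. The groups did not overlap for 3 higher tested members (Hk2, Pfkfb1 and G6pdx) and 5 lower ones (Gpi1, Aldoc, Eno1b, Ldha and Pgls), against 26.3% and 20.8% of all genes tested, 47.1% together. Hk3, too low to be tested, was higher without overlap. The members' median log2 fold change was -0.12, against 0.03 over all genes tested. The share of members called was below that of all genes. By voom 8 members passed, the same 4 with Pgk1, Eno1, Eno1b and Ldha lower, where 33.5% of all genes did. Without Th1 wild-type replicate 3 the number called was 7 (29.6% of all genes), and without Th1 GLUT3-deficient replicate 1 it was 1, Pfkfb1 (19.8%). Without Th1 GLUT3-deficient replicate 2 it was 2, Pfkfb1 and Pgls (20.9%), and without Th1 wild-type replicate 2 it was 2, Pfkfb1 and Bpgm, which had not been called with all 6 libraries (27% of all genes).

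**Figure D2:**
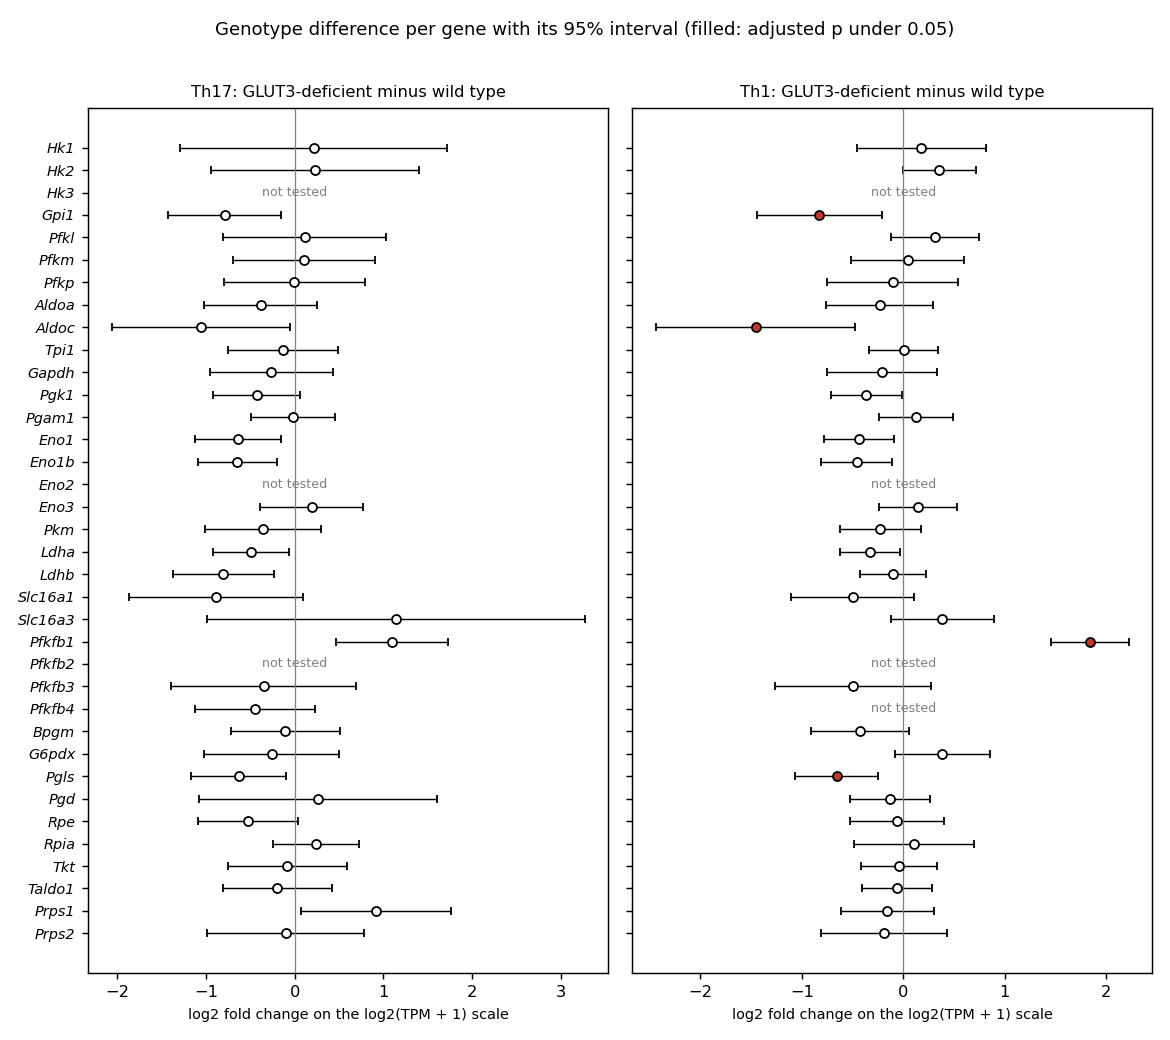
Log2 fold change of each of the 36 members on the log2(TPM + 1) scale (horizontal axes, GLUT3-deficient minus wild type) with its 95% interval, in Th17 (left) and Th1 (right), with filled points for an adjusted p under 0.05. The filled points are Pfkfb1 to the right of 0 and Gpi1, Aldoc and Pgls to the left of 0 in Th1, and no point is filled in Th17.

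Some markers of other cells and of handling differed between the genotypes in the same cultures. The shares of all genes called, to be read beside the counts below, were 4.6% higher and 2.7% lower in Th17. In Th1 they were 17.6% higher and 13.7% lower. The 8 T cell markers summed to 5388 to 5796 TPM in Th17 GLUT3-deficient and 4318 to 5452 TPM in Th17 wild-type libraries, with 0 called. In Th1 they summed to 5975 to 6093 TPM in GLUT3-deficient and 4121 to 4570 TPM in wild-type libraries, with 5 of 8 called higher and 0 lower. The 5 gamma delta T cell markers summed to 166 to 261 TPM in Th17 GLUT3-deficient and 17.3 to 20.4 TPM in Th17 wild-type libraries, and to 173 to 276 TPM in Th1 GLUT3-deficient and 14.6 to 33.6 TPM in Th1 wild-type libraries, with 4 and 5 of 5 tested called higher. Myeloid markers were called higher for 3 of 5 tested in Th17 and 2 of 3 in Th1 (44.2 to 64.9 against 12.4 to 14.6 TPM, and 25.2 to 46.1 against 10.9 to 14.0 TPM, GLUT3-deficient against wild type), and red cell and platelet markers for 2 of 6 in each (45.8 to 114 against 9.23 to 17.6 TPM in Th17, and 59.1 to 197 against 11.7 to 25.2 TPM in Th1). The myeloid genes called in Th17 were Lyz2, Tyrobp and Fcer1g, while Cd68 and Cd14 were not. Of the red cell and platelet genes, Pf4 and Ppbp were called in Th17, while Hbb-bs, Hbb-bt, Hba-a1 and Hba-a2 were not. CD8 and natural killer cell markers summed to 88.2 to 99.9 TPM in Th17 GLUT3-deficient, 48.9 to 64.1 TPM in Th17 wild-type, 191 to 281 TPM in Th1 GLUT3-deficient and 61.8 to 78.0 TPM in Th1 wild-type libraries. They were called higher for 2 of 5 in Th17, and 3 higher with 2 lower of 5 in Th1. Over the 12 libraries Cd8a stood at 0.534 to 2.46 TPM and Cd8b1 at 11.6 to 31.9 TPM. B cell markers were called higher for 1 of 5 in Th17 and lower for 1 of 6 in Th1, at 132 to 199 TPM in Th17 GLUT3-deficient, 114 to 154 TPM in Th17 wild-type, 69.2 to 475 TPM in Th1 GLUT3-deficient and 90.3 to 114 TPM in Th1 wild-type libraries. Immediate early genes, which respond within minutes to stimulation or handling, were called higher for 6 of 15 in Th17 (3010.3 to 3456 against 1512 to 1724 TPM) and 14 of 16 in Th1 (3351 to 4001 against 1131 to 1490 TPM). The 5 Th1 markers summed to 103 to 386 TPM in Th17 GLUT3-deficient and 45.2 to 72.1 TPM in Th17 wild-type libraries, and to 7243 to 9153 TPM in Th1 GLUT3-deficient and 793 to 1364 TPM in Th1 wild-type libraries, with 2 called higher in Th17 and 4 higher and 1 lower in Th1. The Th1 sum was mostly Ifng, at 6739 to 8709 TPM in Th1 GLUT3-deficient and 487 to 1115 TPM in Th1 wild-type libraries, and the lower gene was Cxcr3, at 17.7 to 23.3 TPM in Th1 GLUT3-deficient and 45.4 to 88.5 TPM in Th1 wild-type libraries. No listed marker was at 0 in all 12 libraries, and their part in the results below was not tested. In such bulk samples fewer cells of a type and less RNA per cell cannot be told apart.

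The first step is carried out by hexokinases, which trap glucose as glucose 6-phosphate. Hk1, the widely expressed form, stood at 93.2, 320 and 55.6 TPM in Th17 GLUT3-deficient and 139, 127 and 60.3 TPM in Th17 wild-type replicates 1, 2 and 3. Hk2, the inducible form, stood at 33.1, 30.6 and 27.7 TPM in Th1 GLUT3-deficient and 24.9, 20.4 and 25.5 TPM in Th1 wild-type replicates 1, 2 and 3. The Th1 groups did not overlap for Hk2, but the difference missed the threshold (log2 fold change 0.36 ± 0.16 SE, limma adjusted p = 0.116). In Th17, Hk2 stood at 14.0, 47.5 and 12.8 TPM in GLUT3-deficient and 19.5, 19.7 and 13.7 TPM in wild-type replicates 1, 2 and 3, so the highest and the lowest library were both deficient. Hk3 was listed at 0 in all 3 Th17 wild-type libraries and reached 1.86 TPM in Th17 GLUT3-deficient replicate 2, its highest value.

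Gpi1 (chromosome 7, 34201327 to 34230336, build GRCm38.p6) encodes the isomerase that turns glucose 6-phosphate into fructose 6-phosphate, at the point where the pentose phosphate pathway leaves glycolysis. In Th1 it stood at 452, 417 and 566 TPM in GLUT3-deficient and 1313, 767 and 593 TPM in wild-type replicates 1, 2 and 3. The groups did not overlap, though GLUT3-deficient replicate 3 and wild-type replicate 3 lay close to each other, and Gpi1 fell in deficient cells (log2 fold change -0.83 ± 0.27 SE, limma adjusted p = 0.046). The call was lost without any 1 of the GLUT3-deficient libraries (adjusted p = 0.122, 0.123 and 0.071 without replicates 1, 2 and 3) and without wild-type replicate 2 (adjusted p = 0.0792). In Th17 it stood at 601, 570 and 548 TPM in GLUT3-deficient and 1447, 936 and 718 TPM in wild-type replicates 1, 2 and 3, again without overlap, but the test was not passed (log2 fold change -0.79 ± 0.27 SE, limma adjusted p = 0.129). A processed pseudogene row carried 9.84 to 11.1% of the Gpi1 level in every library.

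Phosphofructokinase, which commits the sugar to glycolysis, is built from the liver (Pfkl), muscle (Pfkm) and platelet (Pfkp) forms. No form passed a genotype test. Pfkl stood at 274, 571 and 197 TPM in Th17 GLUT3-deficient and 303, 343 and 233 TPM in Th17 wild-type replicates 1, 2 and 3, and at 181, 174 and 241 TPM in Th1 GLUT3-deficient and 195, 155 and 132 TPM in Th1 wild type. Th17 GLUT3-deficient replicate 2 was the highest of all 12 libraries, and the genotypes overlapped in both lineages. Pfkp stood at 188, 222 and 137 TPM in Th17 GLUT3-deficient and 272, 181 and 118 TPM in Th17 wild-type replicates 1, 2 and 3, overlapping. Pfkm was the minor form, with 3.54 to 4.37% of the family's summed TPM in every library.

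Aldolase splits fructose 1,6-bisphosphate into 2 triose phosphates. Aldoa, the main form, held 94.4 to 99.0% of the summed aldolase TPM, and its groups overlapped in both lineages. Aldoc (chromosome 11, 78323073 to 78327781), the form best known from brain, stood at 46.1, 25.01 and 57.8 TPM in Th1 GLUT3-deficient and 203, 118 and 60.3 TPM in Th1 wild-type replicates 1, 2 and 3. Every deficient library was below every wild-type one, by a small margin between the replicates numbered 3, and Aldoc fell with the largest called decrease among the members (log2 fold change -1.46 ± 0.43 SE, limma adjusted p = 0.0327). The call was lost without GLUT3-deficient replicate 1 or 2 (adjusted p = 0.0654 and 0.0896) and on leaving out wild-type replicate 1 or 2 (adjusted p = 0.0572 and 0.0859). In Th17 Aldoc stood at 90.8, 57.1 and 91.2 TPM in GLUT3-deficient and 315, 135 and 102 TPM in wild-type replicates 1, 2 and 3. These groups did not overlap either, and the difference was not called (log2 fold change -1.06 ± 0.43 SE, limma adjusted p = 0.182).

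The triose steps held no call. Tpi1 and Gapdh overlapped between the genotypes in both lineages. For Gapdh, wild-type replicate 1 stood far above the rest at 8243 TPM in Th17 and 7593 TPM in Th1, while the other 10 libraries lay between 3620.0 and 5197 TPM. Pgk1, which makes the first ATP of the pathway, stood at 1482, 1336 and 1653 TPM in Th1 GLUT3-deficient and 2232, 1910.0 and 1632 TPM in Th1 wild-type replicates 1, 2 and 3, so 1 deficient library exceeded 1 wild-type library (log2 fold change -0.36 ± 0.15 SE, limma adjusted p = 0.103). Rows of processed copies carried 44.8 to 46.5% of the level of Pgk1, 71.8 to 79.3% of that of the mutase Pgam1 and 11.7 to 12.5% of that of Tpi1, so the single values of these 3 genes are uncertain. Tpi1, Gapdh and Eno2 lie 2.01, 2.36 and 1.96 Mb from Slc2a3 on chromosome 6.

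Enolase makes phosphoenolpyruvate. Eno1, its main form in T cells, stood at 4844, 4355 and 4451 TPM in Th17 GLUT3-deficient and 7861, 7386 and 6065 TPM in Th17 wild-type replicates 1, 2 and 3. All 3 deficient libraries were below all 3 wild-type ones, but the difference missed the threshold (log2 fold change -0.64 ± 0.21 SE, limma adjusted p = 0.113). Its adjusted p was 0.0489 without Th17 GLUT3-deficient replicate 2 and 0.0203 with all 12 libraries in the model. In Th1, Eno1 stood at 3986, 4249 and 5117 TPM in GLUT3-deficient and 6849, 6173 and 5093 TPM in wild-type replicates 1, 2 and 3, and the replicates numbered 3 overlapped (log2 fold change -0.44 ± 0.15 SE, limma adjusted p = 0.0577, and 0.0242 without Th1 wild-type replicate 3). Eno1b, a retrotransposed copy of Eno1 on chromosome 18, kept 0.340 to 0.358 of the Eno1 level in every library, and reads may be split between the copies. Its adjusted p was 0.0909 in Th17 and 0.0509 in Th1, and it passed in Th1 if GLUT3-deficient replicate 3 (0.0461) or wild-type replicate 3 (0.0283) was left out. In Th17 Eno1b passed with all 12 libraries in the model or without GLUT3-deficient replicate 2. Eno3, the muscle form, stood at 158, 119 and 186 TPM in Th17 GLUT3-deficient and 106, 141 and 157 TPM in Th17 wild-type replicates 1, 2 and 3, and overlaps the abundant Pfn1 gene on the annotation, and Eno2, the neuronal form, was highest at 6.05 TPM in Th17 wild-type replicate 1. Pkm, the pyruvate kinase gene, stood at 2106, 3110.0 and 1768 TPM in Th17 GLUT3-deficient and 3133, 3394 and 2304 TPM in Th17 wild-type replicates 1, 2 and 3, overlapping.

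Lactate dehydrogenase A, which turns pyruvate into lactate, kept 96.95 to 98.6% of the summed lactate dehydrogenase TPM. Ldha stood at 3205, 3162 and 3004 TPM in Th17 GLUT3-deficient and 4604, 4480.0 and 4111 TPM in Th17 wild-type replicates 1, 2 and 3. In Th1 it stood at 2958, 3013 and 3615 TPM in GLUT3-deficient and 4348, 3937 and 3744 TPM in wild-type replicates 1, 2 and 3. The groups did not overlap in either lineage, and neither difference passed: the log2 fold change was -0.49 ± 0.18 (SE, limma adjusted p = 0.151) in Th17 and -0.33 ± 0.13 (limma adjusted p = 0.0843) in Th1. With all 12 libraries in the model the Th17 difference passed (limma adjusted p = 0.0256), and by voom the Th1 difference did (adjusted p = 0.01845).

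Ldhb (chromosome 6, 142490249 to 142507957), the form that favours turning lactate back into pyruvate, stood at 55.6, 45.9 and 68.4 TPM in Th17 GLUT3-deficient and 77.7, 109 and 113 TPM in Th17 wild-type replicates 1, 2 and 3. In Th1 it stood at 93.1, 89.0 and 111 TPM in GLUT3-deficient and 100, 112 and 101 TPM in wild-type replicates 1, 2 and 3. The 3 Th17 GLUT3-deficient libraries were thus the lowest of the 12. Against Th17 wild type the difference missed the threshold (log2 fold change -0.81 ± 0.24 SE, limma adjusted p = 0.0948). It passed with all 12 libraries in the model (limma adjusted p = 0.0134). A pseudogene row carried 14.45 to 18.02% of the Ldhb level over the libraries, so the single values of Ldhb are uncertain too.

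The lactate carriers are MCT1, encoded by Slc16a1, and MCT4, encoded by Slc16a3 and suited to export from glycolytic cells. Slc16a1 stood at 35.2, 72.3 and 22.1 TPM in Th17 GLUT3-deficient and 84.1, 75.1 and 59.1 TPM in Th17 wild-type replicates 1, 2 and 3. Only deficient replicate 2 overlapped the wild type, and without it the gene passed (log2 fold change -0.89 ± 0.42 SE and limma adjusted p = 0.234 with it, adjusted p = 0.0137 without it). Slc16a3 stood at 35.04, 378 and 28.6 TPM in Th17 GLUT3-deficient and 38.1, 36.1 and 25.1 TPM in Th17 wild-type replicates 1, 2 and 3. Replicate 2 alone was high, and the log2 fold change of 1.14 ± 0.91 (SE, limma adjusted p = 0.472) became -0.040 without it. The share of Slc16a3 in the 2 carriers' TPM was 38.8, 37.5 and 31.9% in Th1 GLUT3-deficient and 21.5, 33.1 and 16.4% in Th1 wild-type replicates 1, 2 and 3, and 49.9 to 83.9% in Th17 GLUT3-deficient and 29.8 to 32.4% in Th17 wild-type libraries.

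**Figure D3:**
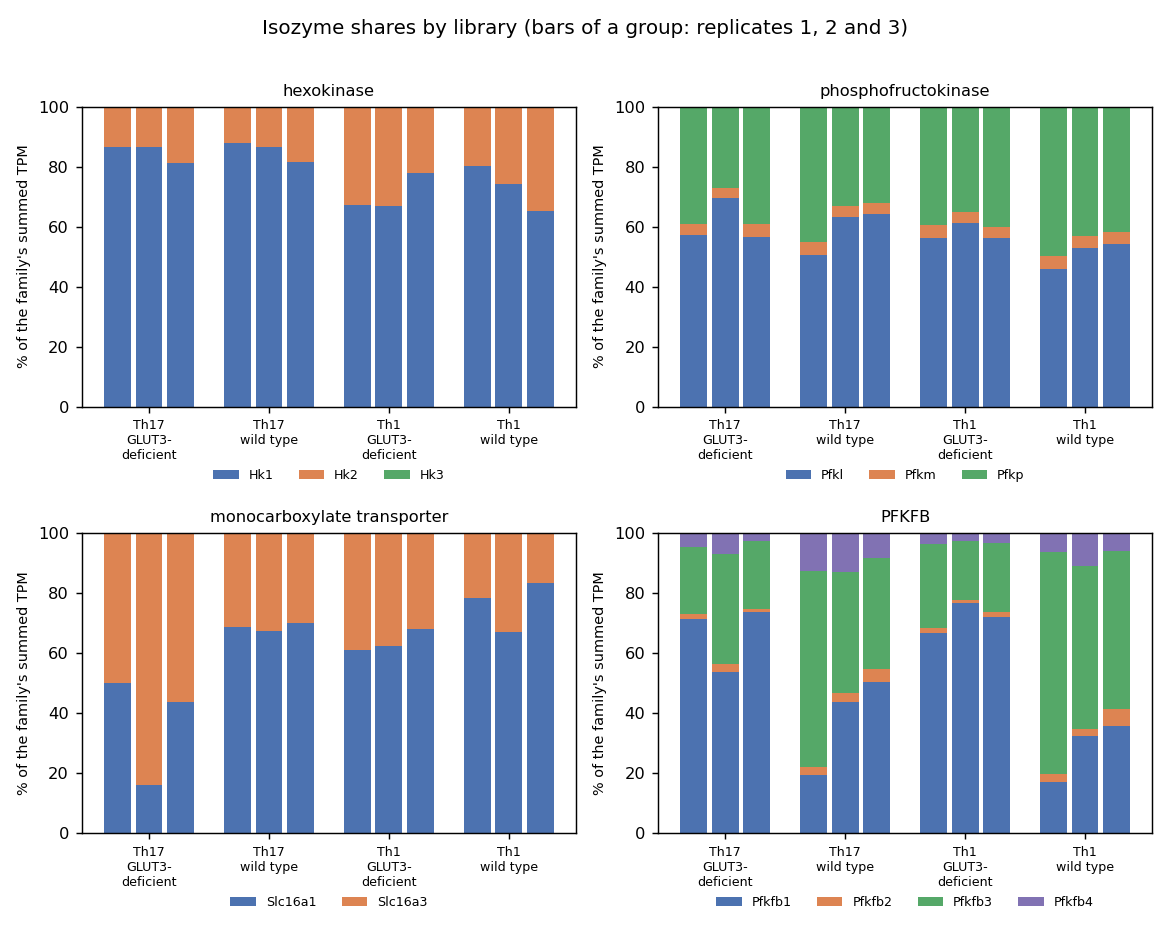
Share of each isozyme in the summed TPM of its family (vertical axes, 0 to 100%) for hexokinase, phosphofructokinase, the 2 lactate carriers and the PFKFB enzymes, with 1 bar per library and the bars of a group in the order of replicates 1, 2 and 3. Pfkfb1 held 53.8 to 76.8% of the PFKFB TPM in GLUT3-deficient libraries of both lineages and 17.1 to 50.4% in wild-type libraries.

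Pfkfb1 (chromosome X, 150587445 to 150643878) is the form of the bifunctional PFKFB enzyme known from liver and muscle, which makes and removes fructose 2,6-bisphosphate. It stood at 10.3, 12.2 and 13.9 TPM in Th1 GLUT3-deficient and 2.69, 2.42 and 2.86 TPM in Th1 wild-type replicates 1, 2 and 3. The deficient libraries were all above 10 TPM and the wild-type ones all under 3 TPM, and Pfkfb1 rose (log2 fold change 1.84 ± 0.17 SE, limma adjusted p = 0.000185). The call held in all 12 alternatives, with log2 fold changes of 1.16 to 2.07 and adjusted p of 0.000125 to 0.00226. In Th17 it stood at 9.63, 10.5 and 9.90 TPM in GLUT3-deficient and 2.99, 4.98 and 4.71 TPM in wild-type replicates 1, 2 and 3. There too every deficient library was higher, and the test was narrowly missed (log2 fold change 1.10 ± 0.27 SE, limma adjusted p = 0.0546), with an adjusted p of 0.024 without GLUT3-deficient replicate 2 and up to 0.188 over the alternatives.

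The start of Pfkfb1 overlaps that of Apex2, a DNA repair gene on the other strand, and the libraries do not mark the strand. Apex2 stood at 3.06, 3.81 and 4.05 TPM in Th1 GLUT3-deficient and 1.55, 1.73 and 1.97 TPM in Th1 wild-type replicates 1, 2 and 3, below Pfkfb1 in each of these libraries, and how far reads of each are counted in the other was not tested. The other PFKFB genes did not pass in either lineage. Pfkfb3, the inducible form of activated cells, was highest in the wild-type library numbered 1 of each lineage, reaching 11.6 TPM in Th1, and lay between 3.03 and 7.15 TPM in the 10 others. Pfkfb2 and Pfkfb4 stayed under 2 TPM. Bpgm, which makes 2,3-bisphosphoglycerate, stood at 18.6, 19.0 and 18.7 TPM in Th1 GLUT3-deficient and 34.2, 18.7 and 26.2 TPM in Th1 wild-type replicates 1, 2 and 3, overlapping.

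**Figure D4:**
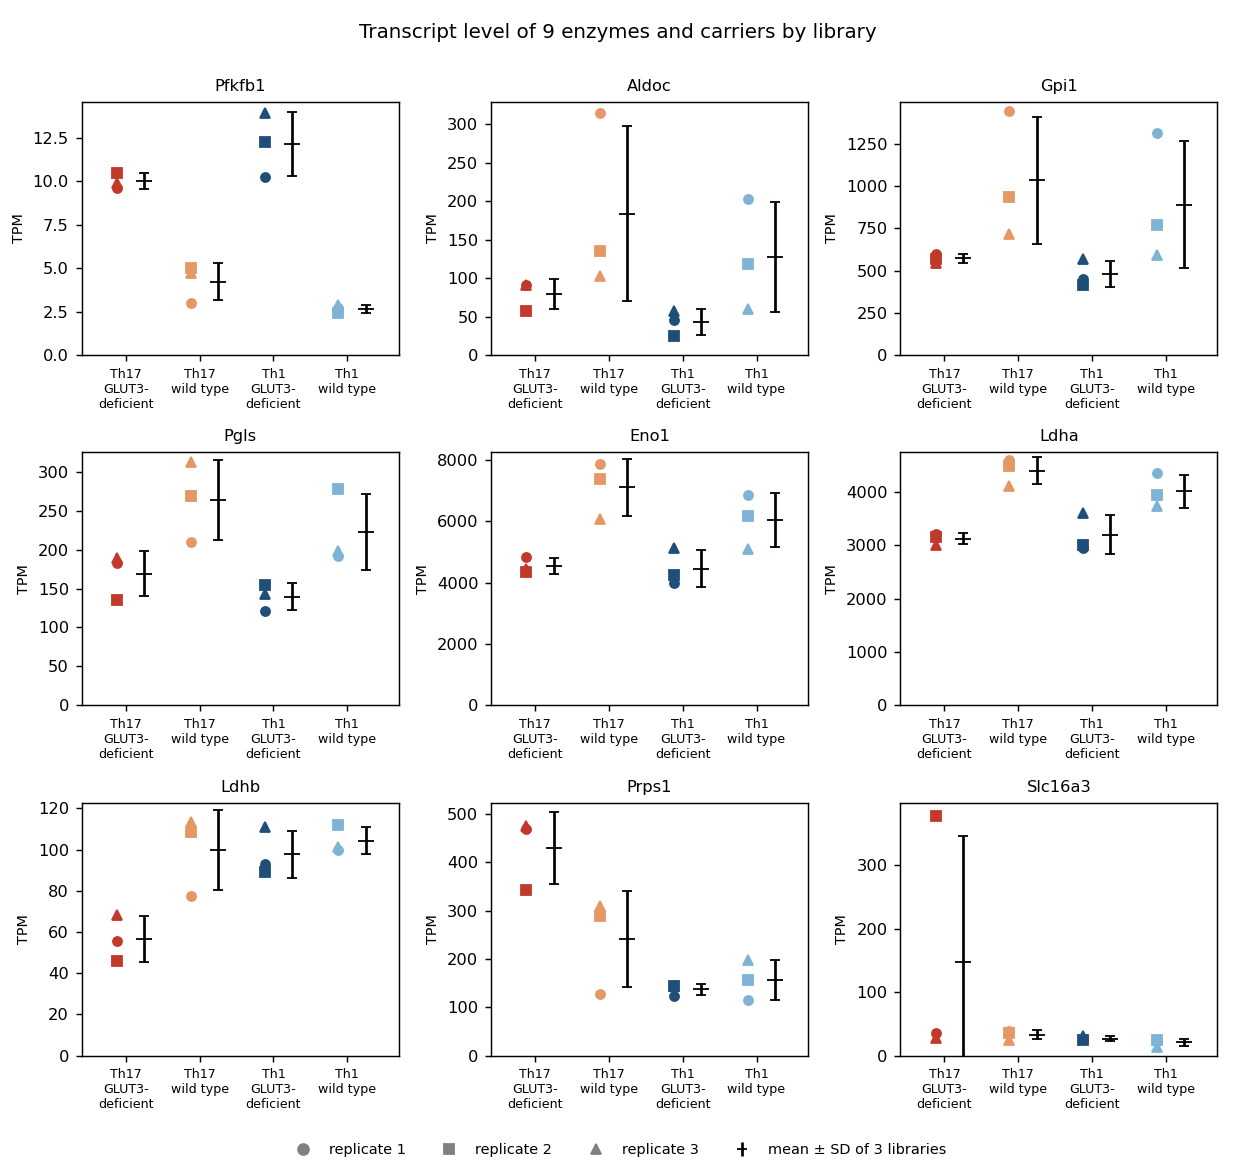
TPM (vertical axes, from 0) of 9 members in each library by group (horizontal axes), with symbols for replicates 1, 2 and 3 and the mean and SD of 3 libraries beside the points. Pfkfb1 was above 9 TPM in all GLUT3-deficient and under 5 TPM in all wild-type libraries, and Slc16a3 was high in Th17 GLUT3-deficient replicate 2 alone, where the SD bar reaches below the axis.

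The oxidative arm of the pentose phosphate pathway runs through G6pdx, Pgls and Pgd. Pgls (chromosome 8, 71592184 to 71596267), the lactonase of its middle step, stood at 121, 155 and 143 TPM in Th1 GLUT3-deficient and 192, 278 and 198 TPM in Th1 wild-type replicates 1, 2 and 3. The groups did not overlap, and Pgls fell (log2 fold change -0.66 ± 0.18 SE, limma adjusted p = 0.0244). The call was lost without GLUT3-deficient replicate 1 or 3 (adjusted p = 0.105 and 0.0691) and on leaving out wild-type replicate 2 (adjusted p = 0.0595). In Th17 it stood at 182, 136 and 189 TPM in GLUT3-deficient and 209, 269 and 312 TPM in wild-type replicates 1, 2 and 3, without overlap and without a call (log2 fold change -0.63 ± 0.23 SE, limma adjusted p = 0.146).

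G6pdx, the entry enzyme of that arm and a source of NADPH, stood at 99.4, 104 and 133 TPM in Th1 GLUT3-deficient and 63.7, 97.97 and 98.04 TPM in Th1 wild-type replicates 1, 2 and 3, not overlapping by a narrow margin and not called. In Th17 its groups overlapped. Pgd, the second source of NADPH, stood at 19.5, 93.0 and 22.3 TPM in Th17 GLUT3-deficient replicates 1, 2 and 3, while the other 9 libraries lay between 20.8 and 33.9 TPM. Replicate 2 alone was high.

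The non-oxidative arm showed no call between the genotypes. Transketolase (Tkt) ranged over 160.0 to 344 TPM in the 12 libraries and transaldolase (Taldo1) over 226 to 413 TPM, overlapping in both lineages. Rpe, the epimerase of ribulose 5-phosphate, stood at 21.4, 25.2 and 18.8 TPM in Th17 GLUT3-deficient and 25.4, 34.98 and 35.5 TPM in Th17 wild-type replicates 1, 2 and 3, which did not overlap by a narrow margin and was not called. Rpia, the matching isomerase, was read at 0.528 to 2.03 TPM.

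Prps1 (chromosome X, 140456603 to 140476140) is the main PRPP synthetase gene, with Prps2 as its less expressed relative. It stood at 469, 343 and 476 TPM in Th17 GLUT3-deficient and 127, 288 and 309 TPM in Th17 wild-type replicates 1, 2 and 3. In Th1 it stood at 124, 143 and 144 TPM in GLUT3-deficient and 114, 157 and 198 TPM in wild-type replicates 1, 2 and 3. The Th17 GLUT3-deficient libraries were the 3 highest of the 12, but against Th17 wild type the difference was not called (log2 fold change 0.92 ± 0.36 SE, limma adjusted p = 0.173). Prps2 held 2.43 to 7.996% of the 2 genes' summed TPM in Th17 and 10.7 to 13.8% in Th1 libraries.

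Whether GLUT3 loss acted differently in Th17 than in Th1 cells was tested as the difference of the genotype effects. Of 34 members tested 0 were called by limma, where it called 0.638% of 14579 genes (0.35% higher and 0.288% lower), and voom also called 0. With an unadjusted p under 0.05 there were 3 members, and 6.38% of all genes. They were Ldhb (difference -0.71 ± 0.27 on the log2 scale, SE), Pfkfb1 (-0.74 ± 0.30) and Prps1 (1.07 ± 0.44), with limma adjusted p of 0.582, 0.617 and 0.653. The differences in call between the lineages given above are therefore not shown to be differences in effect.

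Th17 were set against Th1 cells within each genotype. Among GLUT3-deficient cells 2 of 34 members were called, 1 higher and 1 lower, where 5.91% of 14579 genes were (3.35% higher and 2.56% lower), and among wild-type cells 0 were called by limma or voom, where limma called 3.63% (1.85% higher and 1.78% lower). An unadjusted p under 0.05 was found for 3 members in GLUT3-deficient cells, against 20.6% of all genes, and for 2 (Pfkl and Pfkfb1) in wild-type cells, against 14.6%. Prps1, with the values above, rose in GLUT3-deficient Th17 relative to Th1 cells (log2 fold change 1.63 ± 0.31 SE, limma adjusted p = 0.00793) and passed in all 17 alternatives. In wild type it did not pass (0.56 ± 0.31 SE, adjusted p = 0.459), and the difference between the genotypes is the one tested in the last paragraph. Ldhb fell in GLUT3-deficient Th17 relative to Th1 cells (log2 fold change -0.79 ± 0.19 SE, limma adjusted p = 0.032). That call was lost without Th17 GLUT3-deficient replicate 1 or 2 (adjusted p = 0.0811 and 0.0574) and without any 1 of the Th1 GLUT3-deficient replicates (adjusted p = 0.103, 0.0814 and 0.136 without replicates 1, 2 and 3), and by voom (0.0505).

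Further members separated the lineages without a call. Rpe stood at 18.8 to 25.2 TPM in Th17 GLUT3-deficient and 35.8 to 40.7 TPM in Th1 GLUT3-deficient libraries (log2 fold change -0.79 ± 0.22 SE, limma adjusted p = 0.059). Its adjusted p was 0.032 without Th17 GLUT3-deficient replicate 2, 0.0334 without Th1 wild-type replicate 3 and 0.00805 with median-of-ratios scaling. Pfkl stood at 233 to 343 TPM in Th17 wild-type and 132 to 195 TPM in Th1 wild-type libraries (log2 fold change 0.87 ± 0.33 SE, limma adjusted p = 0.226, and 0.023 without Th17 GLUT3-deficient replicate 2, which sets part of the shared spread). Hk2 was lower in Th17 than in Th1 wild type in every library, at 13.7 to 19.7 against 20.4 to 25.5 TPM, and its share of the hexokinase TPM was 12.3 to 18.4% in Th17 and 19.8 to 34.6% in Th1 wild-type libraries. Among GLUT3-deficient cells Hk2 had a log2 fold change of -0.54 ± 0.39 (SE, limma adjusted p = 0.453, and 0.00275 without Th17 GLUT3-deficient replicate 2). Groups of GLUT3-deficient cells did not overlap for 2 tested members higher in Th17 and 2 lower, against 18.8% and 10.8% of all genes (29.7% together). Those of wild-type cells did not overlap for 4 tested members higher and 1 lower, against 18.8% and 7.89% (26.7% together). The median over all genes was 0.13 in the first comparison and 0.14 in the second, and -0.04 and -0.00 with median-of-ratios scaling, so differences between the lineages are to be read against that shift.

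The members varied with particular libraries as well as with genotype. Of the members at 1 TPM or more in all libraries of a group, 17 of 32 were highest in Th17 wild-type replicate 1, against 33.1% of all such genes, and 19 of 31 in Th1 wild-type replicate 1, against 37.0%. Th1 GLUT3-deficient replicate 3 was highest for 26 of 32 members, against 53.2% of all genes. Ankrd37, a hypoxia-induced gene, also stood highest in the wild-type replicates numbered 1: it was at 12.3, 7.07 and 11.8 TPM in Th17 GLUT3-deficient and 182, 40.4 and 34.1 TPM in Th17 wild-type replicates 1, 2 and 3. Slc2a3 had the same order in wild type in both lineages. The part of this in the genotype differences was not tested beyond leaving that library out. Without Th1 wild-type replicate 1, Gpi1, Pgls and Pfkfb1 kept their call in Th1 and Aldoc lost it.

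**Figure D5:**
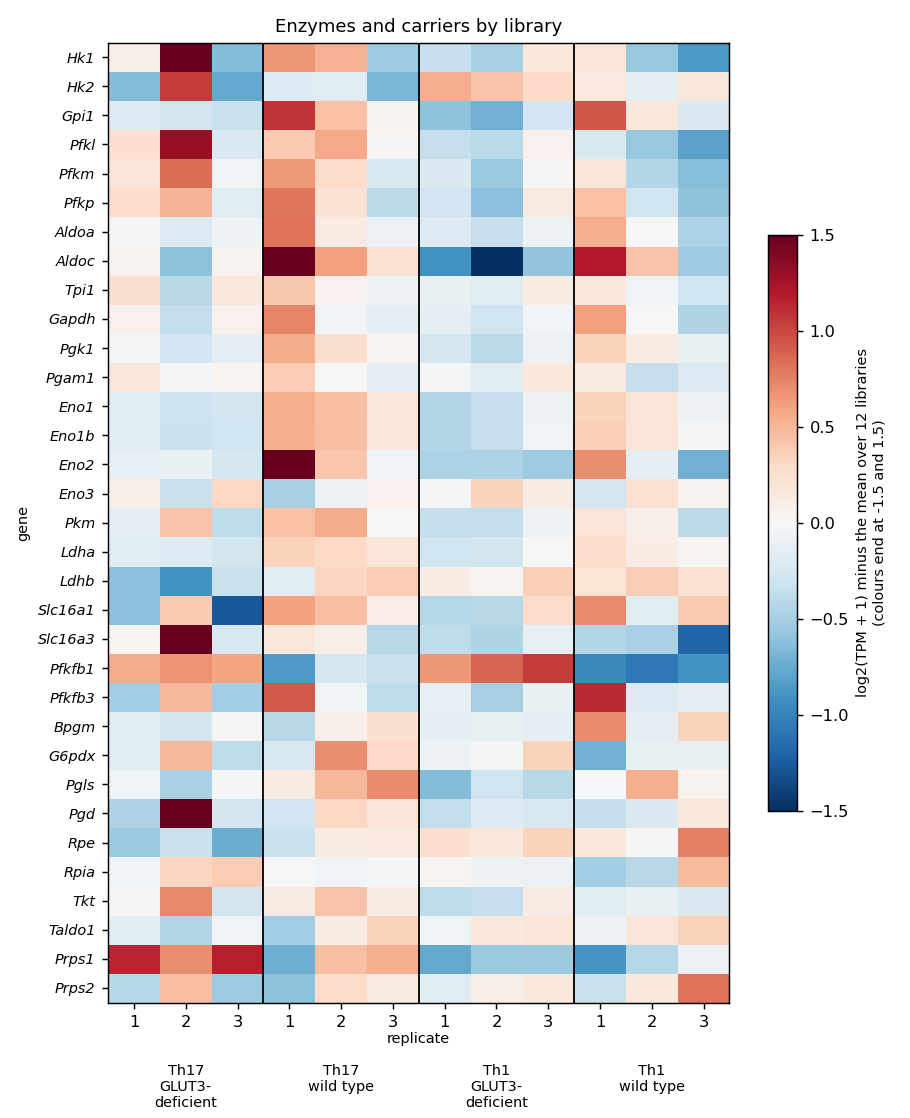
Log2(TPM + 1) of each member with a mean of at least 1 TPM, minus its mean over the 12 libraries (colour, ends at -1.5 and 1.5), by gene (vertical axis) and library (horizontal axis). Wild-type replicate 1 is red for most glycolytic genes in Th17, Th17 GLUT3-deficient replicate 2 is dark red for Hk1, Pfkl, Slc16a3 and Pgd, and Pfkfb1 is red in all 6 deficient libraries and blue in all 6 wild-type libraries.

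Neighbouring genes of the pathways were counted from wider lists. Of 37 further genes of glycolysis, gluconeogenesis and the pentose phosphate pathway, 22 were tested in Th17 and 19 in Th1. In GLUT3-deficient Th17 cells 1 fell and 0 rose, and in Th1 2 fell and 0 rose, with median log2 fold changes of -0.16 and -0.06, against 0.04 and 0.03 over all genes. Beside the counts of these lists stand the shares of all genes called, 4.6% higher and 2.7% lower in Th17 and 17.6% higher and 13.7% lower in Th1. The mutarotase Galm, which interconverts the forms of free glucose and galactose, fell in both: it stood at 11.98, 12.7 and 11.4 TPM in Th17 GLUT3-deficient and 25.6, 28.9 and 23.2 TPM in Th17 wild-type replicates 1, 2 and 3 (log2 fold change -1.04 ± 0.22 SE, limma adjusted p = 0.0353). In Th1 Galm stood at 3.35, 3.76 and 5.87 TPM in GLUT3-deficient and 8.53, 9.56 and 10.4 TPM in wild-type replicates 1, 2 and 3 (-1.01 ± 0.21 SE, adjusted p = 0.00623). The Th17 call did not survive leaving out GLUT3-deficient replicate 1 or 3 (adjusted p = 0.172 and 0.116) or wild-type replicate 1, 2 or 3 (0.0779, 0.196 and 0.142), and the Th1 call held in all 12 alternatives. The acylphosphatase Acyp1 fell in Th1 (-1.08 ± 0.25 SE, adjusted p = 0.0122), a call lost without GLUT3-deficient replicate 3 (0.053).

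Of 25 genes of branches that leave glycolysis (hexosamine, glycogen, glycerol phosphate, polyol and fructose metabolism, the malate and aspartate shuttle), 22 were tested in each lineage. In GLUT3-deficient cells 1 rose and 3 fell in Th17, where 4.6% and 2.7% of all genes did, and 4 rose and 4 fell in Th1, where 17.6% and 13.7% of all genes did. Gfpt2, which opens the hexosamine branch, stood at 22.8, 37.5 and 17.6 TPM in Th17 GLUT3-deficient and 1.57, 2.45 and 2.11 TPM in Th17 wild-type replicates 1, 2 and 3 (log2 fold change 3.09 ± 0.34 SE, limma adjusted p = 0.00485, called in all 12 alternatives). In Th1 it stood at 3.703, 2.80 and 6.38 TPM in GLUT3-deficient cells and was listed at 0, 0.233 and 0.402 TPM in wild type. Every deficient library was above every wild-type one in both lineages. Glycogenin (Gyg), which primes glycogen, stood at 59.1, 59.8 and 61.6 TPM in Th1 GLUT3-deficient and 142, 118 and 122 TPM in Th1 wild-type replicates 1, 2 and 3, and fell (-1.07 ± 0.14 SE, adjusted p = 0.000734, called in all 12 alternatives). In Th17 Gyg fell too (-1.23 ± 0.21 SE, adjusted p = 0.0177), a call lost without Th17 GLUT3-deficient replicate 1 or 3 (0.117 and 0.0674) or Th17 wild-type replicate 2 or 3 (0.112 and 0.105). Uap1, of the hexosamine branch, rose in Th1 (1.40 ± 0.18 SE, adjusted p = 0.000718).

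Of 30 regulators of these genes, 26 were tested in each lineage, and 3 rose and 0 fell in GLUT3-deficient Th17 while 8 rose and 1 fell in Th1. The medians were 0.56 and 0.25, against 0.04 and 0.03 over all genes. In Th1 Hif1a, the oxygen-sensitive subunit of HIF-1, stood at 624, 536 and 611 TPM in GLUT3-deficient and 317, 203 and 245 TPM in wild-type replicates 1, 2 and 3, and rose (log2 fold change 1.23 ± 0.18 SE, limma adjusted p = 0.00124, called in all 12 alternatives). Hif1an, which inhibits HIF-1 activity, rose as well (1.70 ± 0.18 SE, adjusted p = 0.000317, called in all 12 alternatives). In Th17 neither passed (limma adjusted p = 0.255 for Hif1a and 0.0869 for Hif1an). The 1 regulator that fell in Th1 was Myc (-0.59 ± 0.16 SE, limma adjusted p = 0.0225), which was not called in Th17 (limma adjusted p = 0.49). The related gene Mycn, at a lower level, rose in Th1 (1.19 ± 0.185 SE, limma adjusted p = 0.00177, called in all 12 alternatives). It stood at 7.1, 9.3 and 6.8 TPM in Th1 GLUT3-deficient and 3.3, 2.9 and 2.3 TPM in Th1 wild-type replicates 1, 2 and 3. In Th17 Mycn was not called (limma adjusted p = 0.12). Of 27 other genes known to respond to hypoxia 0 passed in Th17 by limma (5 had an unadjusted p under 0.05), with a median of -0.53, and of 26 tested in Th1 2 rose and 6 fell, with a median of -0.47. Ankrd37 fell in Th1, at 17.9, 10.6 and 14.8 TPM in GLUT3-deficient and 290.0, 67.3 and 59.0 TPM in wild-type replicates 1, 2 and 3 (-2.81 ± 0.53 SE, adjusted p = 0.00435, called in all 12 alternatives). For the difference of the genotype effects limma called 0 genes of these 4 lists, with an unadjusted p under 0.05 for 1 further pathway gene, 3 branch genes and 0 of the others.

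The promoter windows of the 6 members called in any comparison are printed here to show the DNA beside which these differences were measured. In Th1, Gpi1, Aldoc and Pgls were each called lower and Pfkfb1 higher. Sequences are from RefSeq for build GRCm38.p6, 300 bases from 250 before to 50 after the start of the transcript, on the strand of the gene, 5′ to 3′. Capitals mark ACGTG or GCGTG and their reverse complements, the core of the HIF response element, searched on both strands.
Gpi1 (chr7:34230287-34230586, minus strand): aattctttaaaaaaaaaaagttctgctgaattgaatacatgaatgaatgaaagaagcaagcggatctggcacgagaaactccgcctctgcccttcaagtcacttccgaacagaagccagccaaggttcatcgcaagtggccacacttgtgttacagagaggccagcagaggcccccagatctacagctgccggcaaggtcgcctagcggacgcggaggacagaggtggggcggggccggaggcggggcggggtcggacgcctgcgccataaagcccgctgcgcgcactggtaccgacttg
Aldoc (chr11:78322823-78323122, plus strand): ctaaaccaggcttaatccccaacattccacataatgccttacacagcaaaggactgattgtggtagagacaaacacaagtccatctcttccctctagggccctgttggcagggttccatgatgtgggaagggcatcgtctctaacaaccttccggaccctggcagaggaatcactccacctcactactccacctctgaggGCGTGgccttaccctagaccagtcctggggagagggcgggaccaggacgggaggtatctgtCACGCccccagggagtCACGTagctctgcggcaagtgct
Pgls (chr8:71591934-71592233, plus strand): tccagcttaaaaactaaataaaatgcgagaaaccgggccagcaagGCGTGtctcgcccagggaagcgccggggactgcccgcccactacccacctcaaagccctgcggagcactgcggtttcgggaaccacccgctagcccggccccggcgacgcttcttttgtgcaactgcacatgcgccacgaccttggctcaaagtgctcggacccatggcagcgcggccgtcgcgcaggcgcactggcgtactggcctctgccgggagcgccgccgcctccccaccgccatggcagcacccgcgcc
Pfkfb1 (chrX:150587195-150587494, plus strand): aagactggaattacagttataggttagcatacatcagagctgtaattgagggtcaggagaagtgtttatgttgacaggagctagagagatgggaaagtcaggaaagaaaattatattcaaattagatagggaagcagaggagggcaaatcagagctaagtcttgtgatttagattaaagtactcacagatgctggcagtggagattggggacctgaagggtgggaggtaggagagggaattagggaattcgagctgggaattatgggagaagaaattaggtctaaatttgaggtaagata
Ldhb (chr6:142507908-142508207, minus strand): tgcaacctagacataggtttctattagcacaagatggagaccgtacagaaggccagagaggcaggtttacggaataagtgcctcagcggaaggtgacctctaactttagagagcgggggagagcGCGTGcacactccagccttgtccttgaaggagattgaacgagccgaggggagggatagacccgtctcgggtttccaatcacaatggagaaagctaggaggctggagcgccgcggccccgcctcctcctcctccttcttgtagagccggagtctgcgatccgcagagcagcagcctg
Prps1 (chrX:140456353-140456652, plus strand): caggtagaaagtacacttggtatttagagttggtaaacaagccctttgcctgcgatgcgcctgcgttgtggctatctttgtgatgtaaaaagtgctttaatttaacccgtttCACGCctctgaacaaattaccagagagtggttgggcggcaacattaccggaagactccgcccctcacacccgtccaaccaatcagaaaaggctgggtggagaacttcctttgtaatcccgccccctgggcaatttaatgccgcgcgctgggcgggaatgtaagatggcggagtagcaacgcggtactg

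The Aldoc window held 1 ACGTG and 2 GCGTG, and those of Pgls, Ldhb and Prps1 held 1 GCGTG each. Those of Gpi1, which fell, and Pfkfb1, which rose, held neither, and the Pfkfb1 window held 1 CpG pair against 21 in that of Gpi1. A window was found for 35 of the 36 members, and 26 of them (74.3%) held ACGTG or GCGTG, against 43.8% of 27025 windows of all genes. Taken singly, ACGTG was in 34.3% of the members' windows and 19.6% of all windows, and GCGTG in 57.1% and 32.5%. The motif CACGTG, the E-box that MYC binds, which contains ACGTG, was in 8.57% of the members' windows and 7.24% of all windows. The members' windows held a median of 18 CpG pairs, against 7 in all windows, and ACGTG and GCGTG each contain such a pair. A match describes letters in the window and is no evidence of binding, and the lack of one says only that these letters are not in this window.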

How the data were processed

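The deposited tables hold TPM, made by the authors from reads per gene divided by combined exon length and scaled to 1000000 per library. Libraries were made from total RNA with SMART-Seq v4 and Nextera XT and read single-end without strand, per the labels' protocols. Per the submitters' processing notes, the build was GRCm38.p6 and the tools were featureCounts 1.6.4, STAR 2.7.2b, DESeq2 1.24.0, cutadapt and bcl2fastq 2.20.0.422, with no role given. Per the file headers, each column is 1 library. Read counts were recovered from the steps of the deposited TPM, with a tolerance of 0.02 reads, for depth and for voom. Depth limits the precision of low genes, and floors cover counting error only.

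Tests used limma 3.58.1 on log2(TPM + 1), in R 4.3.3 with trended variance, for genes that reached 1 TPM in 3 or more libraries of the fit, with Benjamini-Hochberg adjustment over all genes tested and a threshold of 0.05. Fold changes on this scale understate the change of low genes. Genotypes were compared within the 6 libraries of a lineage. Lineages and the difference of genotype effects were tested in a model of all 12 libraries, and levels across lineages come from separate tables scaled alike. The script was tested on simulated data. Alternatives were a pseudocount of 5, no filter, median-of-ratios scaling, voom, a replicate block, all 12 libraries and leaving out each library.

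The members and lists were chosen with earlier results of these data known. All members are described. Of each of the 4 lists, at most the 4 genes with the smallest adjusted p per comparison could be named. Myc was named besides, as the 1 regulator called lower in Th1. Markers appear as sums with their defining genes.

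Replicate numbers are shared between groups in the labels. Same-numbered libraries deviated together in Th17 GLUT3-deficient against Th17 wild type (correlations across genes of 0.14, 0.41 and 0.23) and in Th17 against Th1 wild type (0.72, 0.26 and 0.53), so the numbers may pair those samples. Libraries with unlike numbers reached up to 0.11 in the first comparison and 0.28 in the second. The main tests did not use a pairing, which entered only through the replicate block among the alternatives.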

Additional observations from a re-analysis of the deposited data

How the results depend on the processing

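Of the single-gene values under the alternatives, 731 kept their direction and their side of the threshold, 108 lost and 25 gained a call, and 1 reversed: Slc16a3 in Th17, at -0.040 without GLUT3-deficient replicate 2 (its log2 fold changes ran from -0.040 to 1.80 as each library was left out). The number of members called between genotypes in Th17, 0 as reported, was 1 with median-of-ratios scaling and 0 to 4 when each library was left out. With all 12 libraries in the model it was 5, Pfkfb1 higher and Eno1, Eno1b, Ldha and Ldhb lower. In Th1, 4 as reported, it was 1 with no filter on low TPM, 8 by voom, 1 with all 12 libraries, and 1 to 7 when each library was left out. Between lineages it was 1 to 3 in GLUT3-deficient and 0 to 1 in wild-type cells when each library was left out. The share of all genes called also changed with the setting, as the shares given in the Results show. These counts, and those with the replicate block below, stand without that share and are not results about the members alone. The summed TPM of the pentose phosphate and PRPP genes in Th17 GLUT3-deficient cells, 1312 on average, was 1217 with median-of-ratios scaling, where replicate 2 has the largest size factor (1.328). The cause of the other changes was not tested.

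With the replicate block the number of members called was 0 for genotype in Th17, 4 in Th1, 0 for the difference of genotype effects, 3 for lineage in GLUT3-deficient cells (adding Aldoc) and 0 in wild-type cells. In Th1 genotype (0.16, 0.21 and -0.07) and GLUT3-deficient lineage (0.22, -0.04 and -0.19) same-numbered libraries did not all deviate together. Whether they share more than a number is not settled by these correlations. Changes of low genes such as Hk3, Eno2, Pfkfb2 and Pfkfb4 were limited by depth, and the 3 libraries per group limit all tests.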
